A study of Mus musculus with 8 samples.

Results

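The genes of the Crumbs, Par and Scribble complexes, which set up apicobasal polarity, were followed in BMEL cells that received a GRHL2 plasmid. Members were taken as the rows of the deposited expression table with the symbols Crb3, Pard3, Pard6a, Pard6b, Prkci, Prkcz, Llgl1, Llgl2, Scrib and Dlg1. All 10 symbols were in the table, out of 18671 genes in all. BMEL are bipotential embryonic liver cells of the mouse, a cultured line able to give hepatocyte and cholangiocyte features. RNA was collected 48 h after transfection from 4 control samples, which had received pcDNA3, and from 4 GRHL2 samples, whose plasmid drives a flag-tagged human GRHL2 cDNA from the EF1A promoter and also encodes EGFP. The plasmids therefore differed by more than GRHL2. All 8 samples were grown on collagen in a medium with serum, IGFII, EGF and insulin, and in each group they were numbered as replicates 1 to 4. The RNA came from whole cultures in which the share of transfected cells is not known here, so a change in a few cells and a smaller change in many cannot be told apart.

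An epithelial cell keeps its apical surface distinct from its basolateral surface through 3 groups of proteins that restrain each other. The Crumbs complex and the Par complex, with its atypical protein kinase C, act at the apical side and at the tight junction, whereas the Scribble complex acts at the basolateral side. In liver, apicobasal polarity separates the bile canaliculus or the duct lumen from the surfaces that face the blood and the matrix. GRHL2 is a Grainyhead-like transcription factor known for maintaining epithelial junction genes.

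Values are log2 values per transcript length, as read from the deposited table, and differences are GRHL2 minus control on that log2 scale. The values derive from a shrunken log scale, so differences of genes with few reads are understated, and the read depth behind each value is unknown. Tests are limma's, with p-values adjusted over all 18671 genes and a gene called at an adjusted p under 0.05. Since same-numbered samples of the 2 groups moved together, the result of the fit with the replicate number as a block is given wherever it differs in its call.

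Grhl2 itself was listed at 4.68, 4.57, 4.42 and 4.44 in control replicates 1 to 4 and at 6.30, 6.96, 5.65 and 6.05 in GRHL2 replicates 1 to 4. Every GRHL2 sample was above every control sample, with a difference of 1.71 (SE 0.22, adjusted p = 0.00100). The table is by mouse symbol while the plasmid holds the human cDNA, so this value does not measure the transgene directly. Of 12 hepatic progenitor markers, 11 were in the table and 8 lay above the median gene, from Onecut1 at 1.82 to Krt8, a simple epithelial keratin, at 15.36. The summed level of these markers, on a log2 scale, was 16.59 to 16.77 in control and 16.75 to 16.91 in GRHL2 samples. Levels were summed before the log2 was taken, so Krt8, Krt18 and Krt19 (15.31, 14.76 and 15.05 in control) dominated this sum. Hnf4a was next at 11.16. Of the 11 markers, 2 were called higher and 1 lower. No marker of blood cells (4 of 6 in the table), endothelial cells (5 of 6) or stellate cells (4 of 6) lay above the median gene. The summed level of blood markers was 6.19 to 6.33 in control and 6.33 to 6.45 in GRHL2 samples, that of endothelial markers 4.57 to 4.60 and 4.54 to 4.66, and that of stellate markers 3.93 to 4.04 and 3.92 to 4.05. The blood sum was nearly all Cd68, at 6.08 in control samples, with Itgam next at 2.29. Among the blood, endothelial and stellate markers, 2 stellate ones, Pdgfrb and Reln, were called higher. With the replicate block the blood marker Cd68 (difference 0.16) and the endothelial markers Kdr (0.13) and Tek (0.093) were also called higher, and the blood marker Itgam (-0.076) lower. The part of such cells in the results was not tested.

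Of the 10 members, 3 were higher in GRHL2 samples, namely Crb3, Llgl2 and Prkcz, and 0 were lower by limma. Over all genes, 10.5% were called higher and 5.91% lower. At an unadjusted p under 0.05, 4 members were higher and 0 lower, beside 18.4% and 12.7% of all genes. With the replicate block, 4 members were called higher (Llgl1 in addition) and 1 lower (Prkci), against 18.2% and 13.9% of all genes. For 3 members all GRHL2 samples lay above all control samples, and for 0 members all lay below, against 14.3% and 9.47% of all genes. The median difference over the 10 members was 0.063, beside 0.0066 over all genes.

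**Figure D1:**
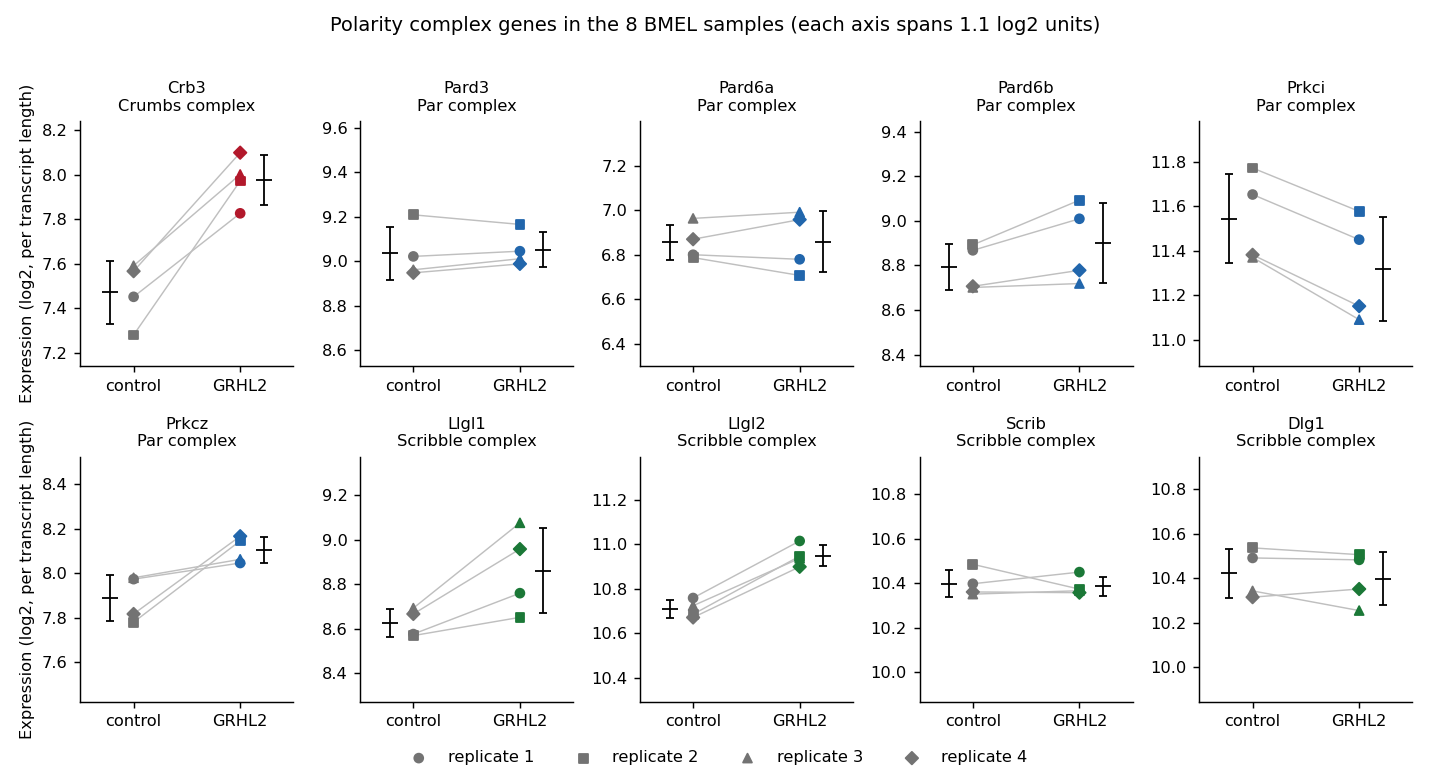
Log2 value per transcript length of each of the 10 members in every sample, with 4 control (grey) and 4 GRHL2 samples (coloured by complex) per panel, lines joining samples of the same replicate number, and bars giving mean ± SD. For Crb3, Llgl2 and Prkcz the GRHL2 samples sit above all control samples, whereas for the other 7 members the groups overlap.

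Crb3, at chr17:57059105-57065918 on the plus strand (GRCm38), encodes the Crumbs protein of most mammalian epithelia, a small transmembrane protein whose tail binds the Pals1 and Par6 scaffolds. It was at 7.45, 7.28, 7.59 and 7.57 in control replicates 1 to 4 and at 7.83, 7.97, 8.0 and 8.10 in GRHL2 replicates 1 to 4. The lowest GRHL2 sample was above the highest control sample. The mean rose from 7.47 ± 0.14 to 7.97 ± 0.11 (SD, n = 4 each), a difference of 0.50 (SE 0.080, 95% confidence interval 0.32 to 0.68) or 1.42-fold, with an adjusted p of 0.00274 by limma and an exact two-sided permutation p of 0.0286, the smallest that 4 against 4 samples allow. Within the pairs of samples that share a number, Crb3 was higher by 0.38, 0.69, 0.41 and 0.53. The same pairs differed in Grhl2 by 1.61, 2.38, 1.23 and 1.61, and pair 2 held the largest difference of both genes. The smallest difference was in pair 1 for Crb3 and in pair 3 for Grhl2. A link between the sizes of these differences was not tested. Of all 10 members, Crb3 had the largest difference in either direction, and it stayed called under each of the 18 alternative settings tried. Its exons share 14 bases (0.895%) with those of Dennd1c on the opposite strand, and reads were counted without regard to strand.

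Sequences around the start sites were examined because they are where promoter letters could be set beside these values. Promoter windows of RefSeq on GRCm38.p6, from 250 bases before to 50 bases after each start, were matched for 8 of the 10 members (not Llgl2 and Scrib) and gave 16 windows. On either strand, none of the 16 held AACCGGTT, AACTGGTT or the looser AACNNGTT that includes both, letters known as the Grainyhead-like core. These are found in 0.146%, 0.776% and 4.20% of the 32851 windows of the table. The letters CAGGTG, or CACCTG on the other strand, form an E-box known to be bound by repressors of the ZEB and SNAIL families, and were chosen for a search after the windows had been seen. At least 1 match was found in 8 of the 16 windows, beside 20.2% of all windows. Both Crb3 windows, which overlap, held 4 matches, as do 18 (0.0548%) of all windows counting those with 4 or more, whereas the single windows of Prkci and Llgl1 held 0. Matches were also found for members that were not called, with 3 in 1 of the 2 Pard3 windows, 2 in the Pard6b window and 1 each in a window of Pard6a and of Dlg1. The 3 windows of Prkcz held 2, 0 and 1. A match here is only a description of the letters. Below are the Crb3 window at chr17:57061981-57062280 (plus strand), where the matches begin at -148, -93, -37 and -5 from the start, the Pard3 window with matches at chr8:127299362-127299661 (plus strand), where they begin at -220, -203 and -166, the Prkcz window with most matches at chr4:155361379-155361678 (minus strand), where they begin at -90 and -57, and the Prkci window at chr3:30995521-30995820 (plus strand), which has none. They are shown because Crb3 differed most, Pard3 had the next most matches with a difference near 0, and the genes of the 2 atypical kinases differed in sign. Each is written 5′ to 3′ with the E-box letters in capitals.
Crb3: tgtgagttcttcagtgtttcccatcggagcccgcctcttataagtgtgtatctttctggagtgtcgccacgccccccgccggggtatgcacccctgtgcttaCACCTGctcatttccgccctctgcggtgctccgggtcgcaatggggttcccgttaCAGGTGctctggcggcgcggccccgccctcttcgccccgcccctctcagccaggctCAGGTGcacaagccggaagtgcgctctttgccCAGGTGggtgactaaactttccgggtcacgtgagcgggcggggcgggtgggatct
Pard3: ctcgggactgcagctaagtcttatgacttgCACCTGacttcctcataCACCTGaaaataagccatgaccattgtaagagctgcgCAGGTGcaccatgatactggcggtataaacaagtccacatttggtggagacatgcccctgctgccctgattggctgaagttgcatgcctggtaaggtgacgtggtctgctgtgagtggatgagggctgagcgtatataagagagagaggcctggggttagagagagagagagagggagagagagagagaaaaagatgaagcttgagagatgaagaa
Prkcz: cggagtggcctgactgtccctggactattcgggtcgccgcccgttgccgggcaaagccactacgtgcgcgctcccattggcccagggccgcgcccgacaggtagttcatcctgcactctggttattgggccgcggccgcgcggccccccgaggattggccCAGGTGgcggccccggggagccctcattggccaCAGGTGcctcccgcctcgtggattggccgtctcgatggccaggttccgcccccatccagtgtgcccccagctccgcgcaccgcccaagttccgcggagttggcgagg
Prkci: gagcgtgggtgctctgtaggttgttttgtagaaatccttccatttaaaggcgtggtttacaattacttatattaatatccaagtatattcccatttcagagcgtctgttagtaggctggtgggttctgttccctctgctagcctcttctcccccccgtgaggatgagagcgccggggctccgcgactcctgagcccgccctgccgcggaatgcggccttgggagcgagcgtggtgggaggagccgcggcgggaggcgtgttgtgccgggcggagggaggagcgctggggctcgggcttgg

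Of the 5 Par members, 1 was called higher (Prkcz) and 0 lower, beside 10.5% and 5.91% of all genes. With the replicate block 1 was called higher and 1 lower (Prkci), beside 18.2% and 13.9%. Pard3, at chr8:127063893-127612286 (plus strand), encodes the scaffold that brings Par6 and the kinase to the tight junction. It was at 9.02, 9.21, 8.96 and 8.95 in control and 9.05, 9.17, 9.01 and 8.99 in GRHL2 replicates 1 to 4, and the groups overlapped. Its difference was 0.018 (95% confidence interval -0.13 to 0.17, adjusted p = 0.892), and its sign turned with median scaling.

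Pard6a, at chr8:105701148-105703496 (plus strand), and Pard6b, at chr2:168081004-168101203 (plus strand), encode Par6 adaptors that bind the atypical kinase and the small GTPase Cdc42. Pard6a was at 6.80, 6.79, 6.96 and 6.87 in control and 6.78, 6.71, 6.99 and 6.96 in GRHL2 replicates 1 to 4, with a difference of 0.0038 (95% confidence interval -0.16 to 0.16, adjusted p = 0.980) whose sign turned with median scaling and with the GC correction. Pard6b was at 8.87, 8.89, 8.70 and 8.71 in control and 9.01, 9.09, 8.72 and 8.78 in GRHL2 replicates 1 to 4. The Pard6b groups overlapped because replicates 3 and 4 were low in both groups. Its difference of 0.11 (95% confidence interval -0.091 to 0.31) was not called (adjusted p = 0.454, and 0.0776 with the replicate block), although the GRHL2 sample was above its same-numbered control in 4 of 4 pairs.

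Prkci, at chr3:30995747-31052959 (plus strand), and Prkcz, at chr4:155260129-155361361 (minus strand), encode the atypical protein kinases C iota and zeta, the catalytic part of the Par complex. Prkcz was at 7.97, 7.78, 7.98 and 7.82 in control and at 8.05, 8.15, 8.06 and 8.17 in GRHL2 replicates 1 to 4. The groups did not overlap, with the narrowest gap of the 3 called members. Prkcz rose by 0.22 (SE 0.060, 95% confidence interval 0.084 to 0.35), or by 16.3%, with an adjusted p of 0.0345 and an exact two-sided permutation p of 0.0286. This call was lost with median scaling (adjusted p = 0.0696), with the GC correction (0.0536), without any single GRHL2 replicate (0.0514, 0.0705, 0.0562 and 0.0871 without replicates 1 to 4), and without control replicate 2 (0.0744) or 4 (0.0825).

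Prkci was at 11.65, 11.77, 11.37 and 11.38 in control and at 11.45, 11.58, 11.09 and 11.15 in GRHL2 replicates 1 to 4. Replicates 1 and 2 were the higher ones in both groups, and the groups overlapped. The difference of -0.23 (SE 0.13, 95% confidence interval -0.51 to 0.052) was not called in the comparison without pairing (adjusted p = 0.252). The sample-number pairs differed by -0.20, -0.19, -0.28 and -0.23, lower in 4 of 4. With the replicate block the same difference had an SE of 0.031 and a 95% confidence interval of -0.30 to -0.16, and it was called lower (adjusted p = 0.000843).

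**Figure D2:**
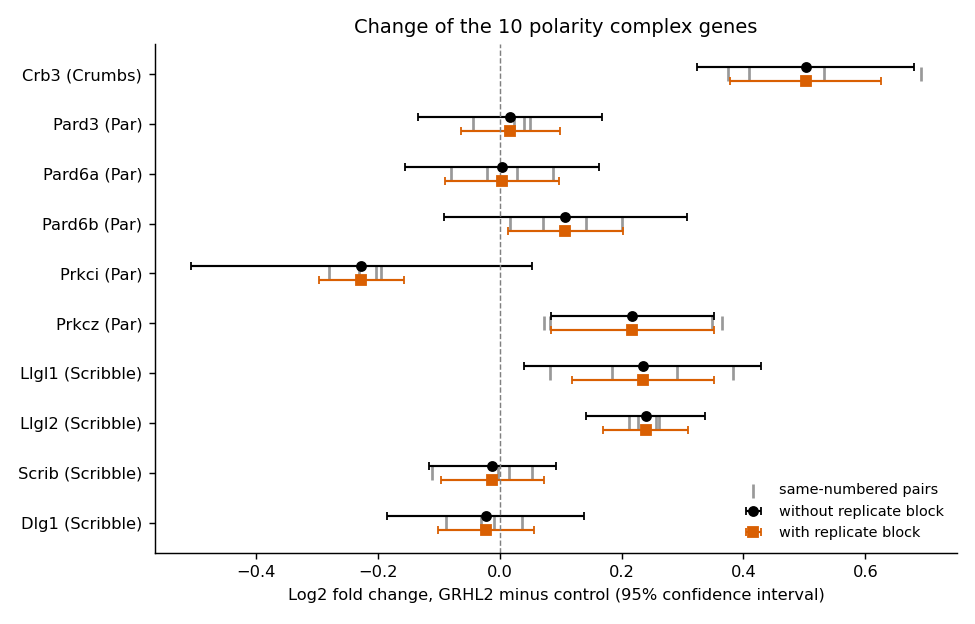
Difference in log2 value (GRHL2 minus control) of each member with its 95% confidence interval, without (circles) and with (squares) the replicate number as a block, and with grey ticks for the 4 same-numbered pairs. The intervals of Crb3, Llgl2, Prkcz and Llgl1 lie above 0 in both fits, whereas with the block only that of Pard6b also lies above 0 and that of Prkci below 0.

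The Scribble members encode basolateral proteins. Llgl2, at chr11:115824049-115855780 (plus strand), and Llgl1, at chr11:60699723-60714186 (plus strand), encode the Lgl proteins, which atypical protein kinase C phosphorylates and thereby keeps off the apical membrane. Llgl2 was at 10.76, 10.69, 10.72 and 10.67 in control and at 11.01, 10.95, 10.94 and 10.90 in GRHL2 replicates 1 to 4. Within each group the samples lay close together, and the groups did not overlap. Llgl2 rose by 0.24 (SE 0.043, 95% confidence interval 0.14 to 0.34), or 1.18-fold, with an adjusted p of 0.00544 and an exact two-sided permutation p of 0.0286, and it was called under each of the 18 alternative settings.

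Llgl1 was at 8.58, 8.57, 8.69 and 8.67 in control and at 8.76, 8.65, 9.08 and 8.96 in GRHL2 replicates 1 to 4. GRHL2 replicate 2 fell inside the control range, and the others were above it. Its difference, 0.24 (SE 0.087, 95% confidence interval 0.040 to 0.43), had about the size of that of Llgl2 with a wider spread, and was not called (adjusted p = 0.0959). It was called with the replicate block (adjusted p = 0.00866) and without GRHL2 replicate 2 (difference 0.30, adjusted p = 0.0292). The difference was 0.13 over replicates 1 and 2 and 0.34 over replicates 3 and 4. Its exons share 64 bases (1.32%) with those of Flii on the opposite strand.

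Scrib, at chr15:76047158-76069784 (minus strand), and Dlg1, at chr16:31663443-31875129 (plus strand), encode the large PDZ scaffolds of the complex. Scrib was at 10.40, 10.49, 10.35 and 10.36 in control and 10.45, 10.37, 10.37 and 10.36 in GRHL2 replicates 1 to 4. Dlg1 was at 10.49, 10.54, 10.34 and 10.32 in control and 10.48, 10.51, 10.26 and 10.35 in GRHL2 replicates 1 to 4. Both pairs of groups overlapped over most of their range. The differences were -0.012 for Scrib (95% confidence interval -0.12 to 0.093, adjusted p = 0.895) and -0.023 for Dlg1 (95% confidence interval -0.18 to 0.14, adjusted p = 0.868), and both signs turned with an equal sum per sample.

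Of the members, 3 pairs are paralogs, and each pair was compared within samples by the difference of its log2 values, with 3 comparisons in all. Llgl2 exceeded Llgl1 by 2.08 ± 0.081 in control and 2.09 ± 0.22 in GRHL2 samples (SD, n = 4 each, exact two-sided permutation p = 0.971). Pard6b exceeded Pard6a by 1.94 ± 0.18 and 2.04 ± 0.32 (exact permutation p = 0.571). Prkci exceeded Prkcz by 3.66 ± 0.25 in control and 3.21 ± 0.24 in GRHL2 samples, or 12.6-fold and 9.26-fold. In each of the 4 same-numbered pairs the GRHL2 sample had the smaller excess of Prkci, by 0.28, 0.56, 0.36 and 0.58. The difference of -0.44 did not pass the exact permutation test without pairing (p = 0.0857), and the sign-flip test over pairs gave an exact p of 0.125, the smallest that 4 pairs allow.

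**Figure D3:**
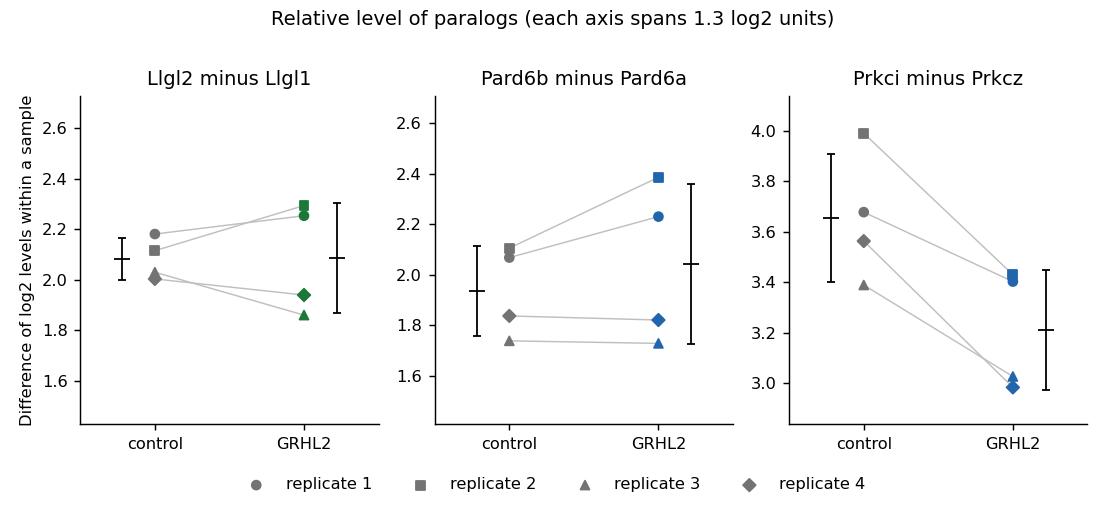
Within-sample difference in log2 value per transcript length between paralogous members (Llgl2 minus Llgl1, Pard6b minus Pard6a, Prkci minus Prkcz), with 1 point per sample, lines joining samples of the same replicate number, and bars giving mean ± SD. For Prkci minus Prkcz all 4 lines run downward from control to GRHL2, whereas for each other pair 2 run upward and 2 downward.

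By level per length, the control means ran from Prkci at 11.54 through Llgl2 at 10.71, Dlg1 at 10.42, Scrib at 10.40, Pard3 at 9.04, Pard6b at 8.79, Llgl1 at 8.63, Prkcz at 7.89 and Crb3 at 7.47 to Pard6a at 6.85. Dlg1 and Scrib were the only neighbours in this order whose control samples overlapped. Each member was above the median gene, from the 53.4th percentile of all genes for Pard6a to the 96.5th for Prkci. The order of the means was the same in GRHL2 samples, where the ranges of Dlg1 and Scrib, Pard3 and Pard6b, Pard6b and Llgl1, and Prkcz and Crb3 overlapped. Crb3 was thus the second lowest member in both groups, and its percentile went from 58.7 to 64.2.

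The members also varied with the replicate number. Replicates 1 and 2 differed from replicates 3 and 4 with the same sign in control and GRHL2 samples for 10 of 10 members, 6 being higher and 4 lower in replicates 1 and 2, and so did 70.9% of all genes. Prkci was higher there by 0.34 in control and 0.39 in GRHL2 samples, and Pard6b by 0.18 and 0.30. Llgl1 differed by -0.11 and -0.31, Pard6a by -0.12 and -0.23, and Crb3 by -0.21 and -0.15. Dlg1 was higher in replicates 1 and 2 by 0.18 and 0.19. In both groups this gap was wider than the difference between plasmids for Prkci, Pard6a, Pard6b, Dlg1, Pard3 and Scrib. Within the same-numbered pairs, 5 members were higher in 4 of 4 pairs and 1 was lower in 4 of 4, against 27.3% and 21.3% of all genes.

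Beyond the members, 39 other polarity genes were listed, of which 38 were in the table (not Lin7a). Of these, 5 were called higher and 3 lower, beside 10.5% and 5.91% of all genes, and with the replicate block 10 and 6, beside 18.2% and 13.9%. Their median difference was -0.0024. Amotl1, an angiomotin family protein of tight junctions, rose from 9.15 ± 0.046 to 9.52 ± 0.019 (SD, n = 4 each), a difference of 0.37 (adjusted p = 0.000549). Mpp5, which encodes Pals1, the scaffold that joins Crumbs to Patj, fell from 9.06 ± 0.11 to 8.73 ± 0.068, a difference of -0.34 (adjusted p = 0.00599). Crb1, the Crumbs protein known from the retina, rose by 0.32 at a low level of 1.94 in control samples (adjusted p = 0.0156). Of the 10 Crumbs partners in the table, 2 were thus called higher and 1 lower, and Crb3 and Mpp5, which encode direct binding partners, were called in opposite directions. Patj itself was at 8.53 and 8.54 (difference 0.011, adjusted p = 0.922).

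Among 8 further Par partners only Sqstm1 was called. It encodes p62, an autophagy receptor that binds atypical protein kinase C, and it fell from 13.30 ± 0.080 to 12.88 ± 0.079, a difference of -0.42 (adjusted p = 0.000876). Cdc42, the GTPase that activates the complex, was at 11.83 and 11.92 (difference 0.084, adjusted p = 0.218). Of 10 genes for the Par-1, Par-4 and Par-5 proteins, Mark1, a Par-1 kinase, rose by 0.30 (adjusted p = 0.0126) from a low 3.58, and Cab39, an activating scaffold of the Lkb1 kinase, fell by 0.23 (adjusted p = 0.0156). Of 7 Scribble partners only Dlg3, a paralog of Dlg1, was called, with a rise of 0.47 from 4.65 ± 0.095 to 5.12 ± 0.18 (adjusted p = 0.00490).

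Of 3 apical membrane genes, Podxl, which encodes the apical sialomucin podocalyxin, rose by 0.28 (adjusted p = 0.0258). This call was lost with median scaling (adjusted p = 0.0638), without GRHL2 replicate 1 (0.0641) or 2 (0.0503), and without control replicate 1 (0.0694), 3 (0.0696) or 4 (0.0602). For 8 partners all GRHL2 samples lay above all control samples, and for 5 all lay below, beside 14.3% and 9.47% of all genes. Each of the 8 called partners was among them. With the replicate block Crb2 (difference 0.16), F11r (0.10), Lrrc1 (0.15), Lrrc7 (0.027) and Slc9a3r1 (0.20) were also called higher. Of these, Lrrc7 lay at -1.91 in control samples, near the lowest deposited value of -2.85. Lin7c (-0.16), Ywhaz (-0.10) and Ezr were called lower with the block. All of these genes were named after their values were seen. Ezr, which encodes the ezrin linker between apical membrane and actin, differed by -0.14 (adjusted p = 0.308, and 0.00499 with the block).

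**Figure D4:**
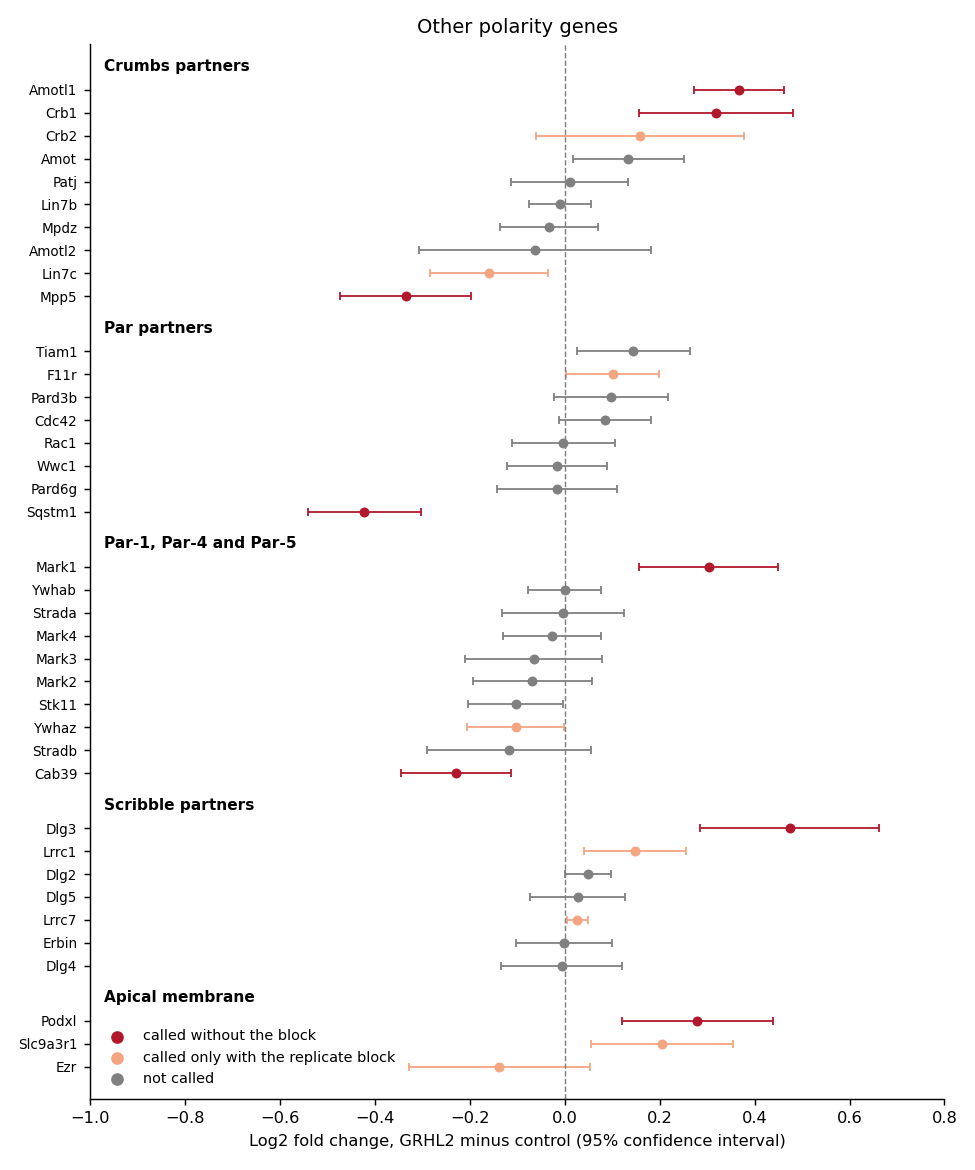
Difference in log2 value (GRHL2 minus control) of the 38 other polarity genes with 95% confidence intervals, grouped by complex and coloured by whether a gene was called without the block (dark red), with it only (light orange) or in neither (grey). The called genes lie on both sides of 0, from -0.42 for Sqstm1 to 0.47 for Dlg3.

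For Crb3 and Llgl2, the called members with the largest differences, the genes with the most similar course over the 8 samples were sought among 6897 genes with an SD of at least 0.1. Closest to Crb3 by Pearson's r were Tead3 (0.994), Plscr3 (0.993), Galc (0.992), Prdx5 (0.988) and Krba1 (0.986). Closest to Llgl2 were Etv4 (0.987), Tprn (0.986), Nfe2l3 (0.985), Mpzl2 (0.980) and Pkp3 (0.980), the last encoding the desmosomal protein plakophilin 3. Chosen for likeness to members that rose, all 10 were called higher in GRHL2 samples, by 0.20 (Tprn) to 0.60 (Pkp3). Such a choice favours genes that rise, so this count is not a separate result. These coefficients describe 8 samples in 2 groups and include the difference between the groups.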

How the data were processed

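RNA-seq of 8 samples was analysed. According to the submitters' processing notes and the methods, reads were mapped to mm10 with HISAT2 2.2.1 and counted on exons without regard to strand with HTSeq 0.9.1, genes under 10 reads in total were dropped, and the rlog of DESeq2 1.40.2 was related to transcript length. The tool versions are those of the notes, which also name GRCm39, and the methods give other versions of the aligner and of the rlog package. This account begins with public datasets in the methods, and was assumed to hold for BMEL too. The deposited values are on a log2 scale although named FPKM, since they run from -2.85 to 18.01 with 4.81% below 0. No read totals are given, so depth is unknown and counting precision cannot be stated.

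The 18671 genes were tested with limma 3.58.1 in R 4.3.3 (4 against 4, trended empirical Bayes variances, p-values adjusted by Benjamini-Hochberg over all genes) and, for single values, with exact two-sided permutation tests over samples. Same-numbered samples deviated together from their group means (Pearson's r over genes 0.474, 0.565, 0.549 and 0.645 for numbers 1 to 4, all over 0.1). The numbers, which come from the sample labels, were therefore used as pairs in the replicate block, the pair differences and the sign-flip test. The main limma fit and the permutation tests did not use the pairing. Samples of other numbers correlated nearly as much within replicates 1 and 2 or within 3 and 4 (0.344 to 0.602), and at -0.611 to -0.399 across these sets, so the data alone do not single out the 4 pairs. The study calls the replicates independent and biological, and the labels do not say whether each was a separate culture. Gene positions come from GENCODE M21 (GRCm38).

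The members and gene lists were chosen with earlier results of these data known. Named were the 10 members, Grhl2, called genes of the list of other polarity genes (all, if 12 or fewer) and, for the 2 called members that differed most, the 5 genes of highest Pearson's r. Patj, Cdc42 and Ezr were added after their values were seen. Alternatives were other scalings (upper quartile, median, equal sum), the replicate block, a minimum mean log2 value of 5 or of 0, no trend, a robust fit and each sample left out. A correction for GC content (lowess, span 0.3), without and with the block, was chosen after seeing the data.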

Additional observations from a re-analysis of the deposited data

Results flagged for a closer look

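Among 44 groups of 4 values, from the members, Grhl2, the called partner genes and the paralog differences, 1 held a sample far from the others. Dlg3 was at 4.857 in GRHL2 replicate 2, below the next GRHL2 sample at 5.18, a gap of 0.831 of the group's range and past the 95% critical value of Dixon's test. Chance gives such a sample in about 1 in 20 groups. Without that replicate the difference of Dlg3 was 0.56, beside 0.47 with all samples.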

How the results depend on the processing

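Crb3 and Llgl2 were called under all 18 alternatives, and 0 members were called lower except with the replicate block (1) and with the GC correction and the block (1). Leaving out single samples gave 2 to 3 members called higher. Partners called higher were 10 with an upper quartile scaling, 8 with an equal sum, 10 with the block, 11 with the GC correction and block, and 2 among genes of a mean of at least 5, where fewer genes were tested. Partners called lower were 6 with the block and 9 with the GC correction and block. Over all genes, 1957 were called higher and 1104 lower (63.9% higher). With an upper quartile scaling 3064 were higher (75.9%), with median scaling 1119 (47.1%), with an equal sum 2912 (77.0%), and at a mean of at least 5, 715 (44.3%). With the block 3396 were higher and 2589 lower, and with the GC correction and block 3157 and 2751 (53.4% higher). Without single samples the lower calls ran from 690 (without GRHL2 replicate 3) to 1036. The pairing by replicate number changed no other member's call than those of Prkci and Llgl1.

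Values near 0 changed sign. Pard3 was at -0.013 with median scaling and between -0.020 and 0.075 without single samples. Pard6a was at -0.026 with median scaling, -0.037 with the GC correction, with or without the block, and between -0.040 and 0.054 without single samples. Scrib was at 0.011 with an upper quartile scaling, 0.012 with an equal sum and between -0.033 and 0.017 without single samples. Dlg1 was at 0.0013 with an equal sum, 0.0071 with the GC correction, with or without the block, and between -0.058 and 0.025 without single samples. The cause of these moves was not tested. The median of all genes stayed between -0.024 and 0.031 under the scalings. Depth is unknown, so how far it limits small differences cannot be said.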
